A study of Mus musculus with 3 samples.

Results

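The small leucine-rich proteoglycans keratocan (Kera), lumican (Lum), decorin (Dcn), biglycan (Bgn), osteoglycin (Ogn), fibromodulin (Fmod), Prelp, asporin (Aspn) and osteomodulin (Omd) were followed across 3 single-nucleus libraries of mouse cornea. These 9 genes were taken by symbol and Ensembl ID from the 30406 gene IDs that the lists of all 3 libraries share, and every one of them was measured in every library. They were taken as a gene family, with earlier results of these data known. WT was whole cornea of untreated wild-type mice, KO that of untreated Aire-knockout mice, and KO_PBS that of Aire-knockout mice given phosphate-buffered saline (PBS) for 14 days. Every library pooled corneas of 5 mice aged 7 weeks, per the labels, so there was 1 library per group and no replicate. Aire drives the display of tissue antigens in the thymus, and the series presents the knockout as a model of dry eye disease. The series text gives the age as 6 weeks and the treatment day as 7, and it names an arm given 4 uM lacripep that was not analysed here. Both knockout groups carry the deletion in the whole animal as far as the labels state, and neither the allele nor the strain is given in them.

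Small leucine-rich proteoglycans are secreted proteins of leucine-rich repeats that bind collagen fibrils and carry sulfated sugar chains. In the corneal stroma they coat the fibrils laid down by keratocytes, the resident fibroblast-like cells, and they keep fibril diameter and spacing even, on which transparency depends. Keratocan, lumican and osteoglycin carry keratan sulfate there, and decorin carries chondroitin or dermatan sulfate. Several members also bind growth factors or receptors outside the matrix.

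The members lie in 4 places of the mouse genome (mm10, GRCm38, with gene limits from GENCODE M21). Dcn (chr10:97479609-97518143), Lum (chr10:97565128-97572703) and Kera (chr10:97606879-97613692) follow each other on the plus strand, with Epyc, a further member of the family, beyond them. Aspn (chr13:49544443-49567565), Omd (chr13:49582462-49592822) and Ogn (chr13:49608046-49624501) form a second row on the plus strand, inside the outer limits of Cenpp, which is read from the other strand. Prelp (chr1:133910304-133921414, minus strand) and Fmod (chr1:134037254-134048277, plus strand) lie near each other, and Bgn (chrX:73483602-73495933, plus strand) stands alone. Prelp overlaps Gm15851 on the other strand. No source used here says whether counting used the strand, so UMIs of Aspn, Omd, Ogn and Prelp could include RNA of the antisense partner.

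RefSeq's promoter table (GRCm38.p6) held 7 of the 9 members, all but Lum and Dcn. The stretch of 250 bases just before the start site is printed for 3 of them. Bgn is shown because it differed most between WT and KO, Fmod because its level ran closest to that of Bgn, and Ogn because it was highest in other barcodes than the rest, as described further on. The Bgn sequence is chrX:73483351-73483600, the Fmod sequence chr1:134037004-134037253 and the Ogn sequence chr13:49607765-49608014, each on the plus strand and 5′ to 3′. Capitals mark matches on either strand to the TATA box (TATAAA), the CCAAT box, the GC box (GGGCGG), the AP-1 site (TGANTCA) or a STAT site (TTCNNNGAA), and overlapping matches run together.
Bgn: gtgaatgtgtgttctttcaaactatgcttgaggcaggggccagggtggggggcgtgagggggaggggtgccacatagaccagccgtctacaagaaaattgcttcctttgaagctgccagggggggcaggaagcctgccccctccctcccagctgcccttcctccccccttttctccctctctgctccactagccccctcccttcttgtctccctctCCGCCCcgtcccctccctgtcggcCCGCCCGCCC
Fmod: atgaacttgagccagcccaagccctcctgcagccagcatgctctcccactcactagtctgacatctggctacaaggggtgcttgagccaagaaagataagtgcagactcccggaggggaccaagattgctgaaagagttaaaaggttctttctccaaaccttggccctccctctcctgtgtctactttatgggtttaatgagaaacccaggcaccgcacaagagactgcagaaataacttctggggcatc
Ogn: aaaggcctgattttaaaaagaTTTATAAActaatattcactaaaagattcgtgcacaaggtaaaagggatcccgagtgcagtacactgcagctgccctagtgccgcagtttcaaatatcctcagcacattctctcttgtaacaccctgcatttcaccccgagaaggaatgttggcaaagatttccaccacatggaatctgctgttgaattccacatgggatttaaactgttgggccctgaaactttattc
Bgn had 3 GGGCGG matches, the GC box, within 34 bases of the start, and 63.7% of its window of 300 bases was G or C. Ogn had TATAAA on both strands at 1 place 229 bases before the start, while Fmod had no match in the printed stretch. Over windows of 300 bases, TATAAA was present in 13.6% of 32851 promoters and in 2 of the 7 members (Ogn and Aspn). CCAAT was present in 37.4% and in 4 members (Kera, Fmod, Prelp and Aspn), and GGGCGG in 35.7% and in 1 member, Bgn. Neither TGANTCA (7.81% of promoters) nor TTCNNNGAA (8.30%) was found in the 7 windows. The Kera window, which holds 3 CCAAT matches, lies in the first exon of Kera in GENCODE M21 and is not printed. These matches are letters in a window and were not tied to binding of any factor.

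The libraries held 178988562 to 352627863 UMIs (unique molecular identifiers, each standing for 1 captured RNA molecule) in 96587 to 114357 barcodes, and KO_PBS was the shallowest, with a median of 1432 UMIs per barcode against 2261 in WT and 2980 in KO. Levels are given as CPM, the UMIs of a gene per 1000000 UMIs on shared gene IDs, with exact 95% Poisson intervals that cover counting error only. KO_PBS also stood apart in the markers of other tissues, and the comparison of KO with WT does not use it. The summed level of 7 lens markers of the 8 listed (Lim2 is not among the shared IDs) was 434 CPM in WT, 167 in KO and 6216 in KO_PBS, that of 6 melanocyte markers 488, 142 and 4187, and that of 5 photoreceptor markers 143, 59.0 and 1719. Markers of corneal epithelium (9 genes) summed to 39861, 25601 and 11027 CPM, those of macrophages (8 genes) to 95.1, 1236 and 1222, and those of B and plasma cells (7 genes) to 14.8, 1287 and 123. All 10 stromal collagen markers (collagen genes with Angptl7 and Abi3bp) were present in every library, at 949, 3292 and 1850 CPM in sum. Every other marker named here was detected in all 3 libraries. The part of these marker levels in the results below was not tested. Aire itself had 15, 27 and 68 UMIs and did not check the labels, so the groups are the libraries labelled so. From 2833 to 3379 barcode sequences were shared by each pair of libraries, at most 3.16% of a library.

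The family made up 725 CPM in WT (95% interval 722 to 728), 2039 CPM in KO (2034 to 2044) and 1642 CPM in KO_PBS (1636 to 1648). In each library the 9 genes summed to less than the 10 stromal collagen markers. In such sums, more stromal cells and more RNA per stromal cell cannot be told apart.

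**Figure D1:**
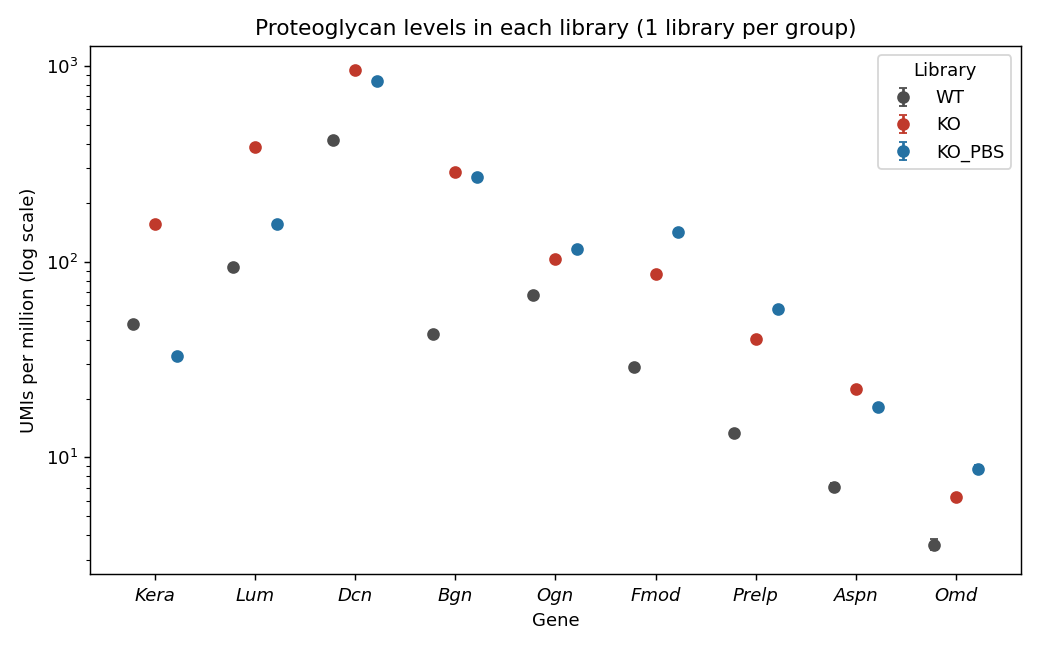
Level of each proteoglycan in CPM (vertical axis, log scale) for WT, KO and KO_PBS, 1 point per library, with bars for the exact 95% Poisson interval, mostly hidden by the points. WT was the lowest library for every gene but Kera, which was lowest in KO_PBS at 32.9 CPM, and all differences depend on scaling as the text describes.

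Scaled by exon length from GENCODE M21, decorin was the most abundant member everywhere, at 71.8 CPM per kb in WT, 163 in KO and 144 in KO_PBS. Tags from 3′ ends, as in this assay, need not scale with length, so the order between genes is only a guide. Below decorin the WT order was Lum (38.5 CPM per kb), Ogn (26.3), Kera (21.2), Fmod (8.78), Bgn (7.02), Prelp (3.68), Aspn (2.99) and Omd (1.59). In KO, Lum stood at 157 CPM per kb, next to decorin, and Kera (68.5), Bgn (47.0), Ogn (40.3), Fmod (26.3), Prelp (11.2), Aspn (9.56) and Omd (2.78) followed. In KO_PBS the order was Lum (63.6 CPM per kb), Ogn (45.4), Bgn (44.4), Fmod (42.8), Prelp (15.8), Kera (14.4), Aspn (7.71) and Omd (3.87). By this measure Kera stood above Fmod and Bgn in WT and below both in KO_PBS. No 2 neighbours in an order had overlapping counting intervals, but no spread between replicates is known.

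A difference between libraries was counted when a gene had at least 50 UMIs over both, a fold of at least 2 and separate intervals. Such a rule of size is no test, and with 1 library per group no p-value can be given. By it, 7 of the 9 proteoglycans stood higher in KO than in WT and 0 lower, where 20.6% of 20252 genes were higher and 8.63% lower, although per UMI of their 11 collagen partner genes the ratio turned downward for Kera, Dcn, Fmod, Prelp and Aspn. The 2 genes outside the rule were Ogn and Omd, whose ratios also turned downward on that base. Against KO, KO_PBS was lower for 2 of 9 (Kera and Lum) and higher for 0, where 4.7% of genes were lower and 39.9% higher. KO_PBS was higher than WT for 6 of 9 and lower for 0, where 57% of genes were higher and 4.06% lower, but with ratios centred on the median gene it was higher only for Bgn and Fmod and lower for Kera. The median gene itself was shifted by 0.24 on the log2 scale in KO against WT, by 0.63 in KO_PBS against KO and by 1.27 in KO_PBS against WT. Relative to that shift, the share of all genes higher and lower was 14.8% and 12.9% in KO against WT, 29.8% and 12.9% in KO_PBS against KO, and 29.6% and 23.1% in KO_PBS against WT. After that centring 6 members were still higher in KO than in WT, with Dcn dropping out. The 3 comparisons share libraries, so each is given by its own values.

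Keratocan, a keratan sulfate proteoglycan that is largely restricted to the cornea and is used to mark keratocytes, had 48.4 CPM in WT (47.5 to 49.2), 156 in KO (155 to 157) and 32.9 in KO_PBS (32.1 to 33.8). KO was highest and KO_PBS lowest, and no 2 intervals overlapped. The level was 3.23-fold higher in KO than in WT, though per collagen partner UMI it was not higher (log2 ratio -0.21). From KO to KO_PBS it was 4.74-fold lower, which placed Kera at percentile 1.83 of all genes, and it was lower under each of the 11 alternative settings (log2 ratio -2.88 to -1.38). Against WT, KO_PBS was 1.47-fold lower in Kera, which did not pass the rule, and 3.54-fold lower relative to the median gene.

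Lumican, the keratan sulfate proteoglycan that limits fibril thickness and that pairs with keratocan in the stroma, had 94.4 CPM in WT (93.2 to 95.6), 385 in KO (383 to 387) and 156 in KO_PBS (154 to 157). KO was again highest, but KO_PBS lay above WT. The ratio of KO to WT was 4.08-fold and stayed above 1 per collagen partner UMI (log2 ratio 0.13). KO_PBS was 2.47-fold lower than KO, and lower under each of the 11 alternative settings (log2 ratio -1.94 to -0.44). Its 1.65-fold ratio to WT did not pass the rule and turned downward relative to the median gene (log2 ratio -0.55). Kera and Lum were the members with the lowest ratio of KO_PBS to KO.

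Fibromodulin, which guides fibril assembly and collagen cross-linking in tendon and sclera, went the other way after KO. It had 29.0 CPM in WT (28.4 to 29.7), 86.9 in KO (85.9 to 87.8) and 142 in KO_PBS (140 to 143), with no overlap. KO was 2.99-fold above WT and KO_PBS 4.87-fold above WT. The ratio of KO_PBS to KO was 1.63-fold, under the fold of 2, and 1.05-fold relative to the median gene. Prelp, a basic member of the family that binds heparan sulfate and collagen, had 13.3 CPM in WT (12.9 to 13.8), 40.4 in KO (39.8 to 41.1) and 57.3 in KO_PBS (56.2 to 58.4). In CPM its libraries stood in the same order as those of Fmod, with 3.04-fold in KO against WT and 4.30-fold in KO_PBS against WT. Relative to the median gene the ratio of KO_PBS to WT was 1.78-fold and did not pass the rule. With median centring Prelp in KO_PBS turned to below KO (log2 ratio -0.13). Both Fmod and Prelp turned downward in KO against WT per collagen partner UMI (log2 ratio -0.32 and -0.30). Osteomodulin, best known from bone, was the scarcest member at 3.58 CPM in WT (3.35 to 3.82), 6.26 in KO (6.00 to 6.53) and 8.71 in KO_PBS (8.28 to 9.16). It passed the rule only in KO_PBS against WT (2.43-fold), and there its ratio relative to the median gene was 1.01-fold. From KO to KO_PBS its ratio turned downward relative to the median gene (log2 ratio -0.15).

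Decorin, which binds collagen fibrils and sequesters TGF-beta, had 419 CPM in WT (416 to 421), 952 in KO (949 to 956) and 841 in KO_PBS (837 to 846). Both knockout libraries were above WT, by 2.27-fold in KO and 2.01-fold in KO_PBS. Relative to the median gene neither ratio passed, and that of KO_PBS turned downward (log2 ratio -0.26). Biglycan, the closest relative of decorin and a known ligand of the innate receptors Tlr2 and Tlr4, had 42.8 CPM in WT (42.0 to 43.7), 286 in KO (285 to 288) and 270 in KO_PBS (268 to 273). In CPM WT was far below both knockout libraries, which differed by 1.06-fold from each other. Between settings the log2 ratio of KO_PBS to KO ran from -0.71 to 0.79. The ratio to WT was 6.68-fold in KO and 6.31-fold in KO_PBS, the highest ratio of the 9 members in both comparisons. It lay at percentile 94.5 of all genes in KO and 77.3 in KO_PBS, and relative to the median gene it was 5.64-fold and 2.62-fold. It stayed above 1 under each of the 11 alternative settings in both (log2 ratio 0.84 to 2.77 in KO, 1.39 to 2.69 in KO_PBS). Asporin, a relative of both that lacks their chondroitin or dermatan sulfate chains, had 7.04 CPM in WT (6.72 to 7.37), 22.5 in KO (22.0 to 23.0) and 18.1 in KO_PBS (17.5 to 18.8). It was 3.20-fold above WT in KO and 2.58-fold in KO_PBS, and per collagen partner UMI it was below WT in KO (log2 ratio -0.22). Relative to the median gene the ratio of KO_PBS to WT was 1.07-fold and did not pass the rule.

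Osteoglycin, also called mimecan, had 67.4 CPM in WT (66.4 to 68.4), 103 in KO (102 to 105) and 116 in KO_PBS (115 to 118). Its 3 libraries were closer to each other than those of any other member, with 1.53-fold in KO against WT, 1.13-fold in KO_PBS against KO and 1.73-fold in KO_PBS against WT. None of these passed the rule. Per collagen partner UMI the ratio of KO to WT turned downward (log2 ratio -1.28), with 75.4 Ogn UMIs per 1000 collagen UMIs in WT and 31.0 in KO. Relative to the median gene KO_PBS was below both other libraries in Ogn (log2 ratio -0.46 and -0.48).

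Shares within the family do not depend on how libraries are scaled. Decorin supplied 57.8% of the family's UMIs in WT against 46.7% in KO and 51.2% in KO_PBS. Kera supplied 6.67%, 7.65% and 2.00%, and Lum 13.0%, 18.9% and 9.48%. Bgn went from 5.91% in WT to 14.0% in KO and 16.5% in KO_PBS, and Fmod from 4.01% and 4.26% to 8.62%. Ogn held 9.30%, 5.07% and 7.09%, Prelp 1.84%, 1.98% and 3.49%, Aspn 0.971%, 1.10% and 1.10%, and Omd 0.494%, 0.307% and 0.530%. The exact binomial intervals of the 3 libraries did not overlap for Kera, where they were 6.56% to 6.78%, 7.59% to 7.72% and 1.95% to 2.06%.

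**Figure D2:**
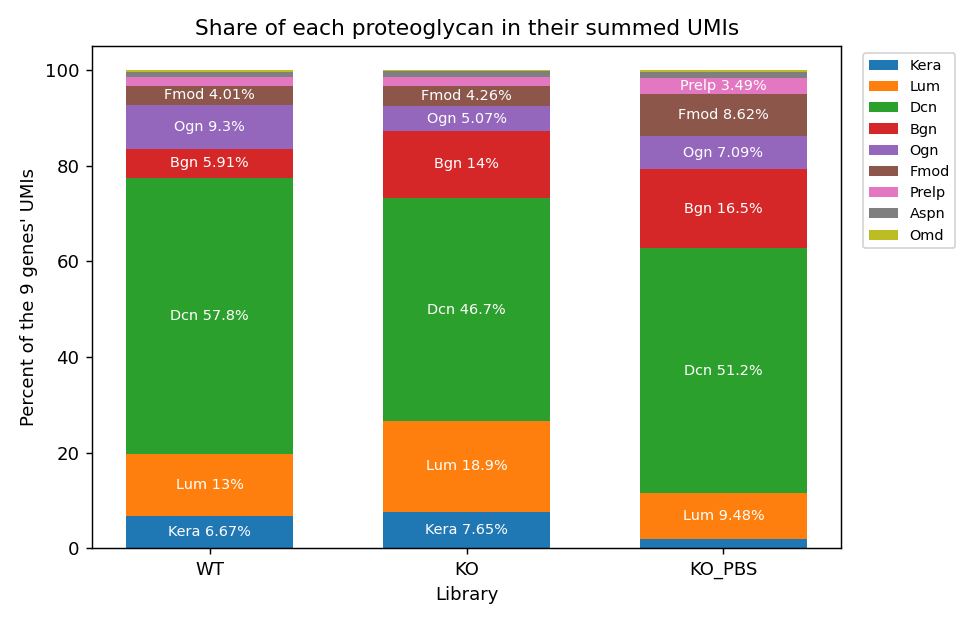
Share of each proteoglycan in the summed UMIs of the 9 genes (vertical axis, percent), 1 stacked bar per library. Bgn takes 5.91% of the bar in WT and 16.5% in KO_PBS, while the Kera band at the base is 2.00% in KO_PBS.

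Of the 36 ratios between 2 members, Kera to Bgn spread widest over the libraries. There were 1.13 Kera UMIs per Bgn UMI in WT against 0.545 in KO and 0.122 in KO_PBS, a spread of 9.27-fold. The next ratios in size also had Kera in them. Kera to Fmod was 1.67 in WT, 1.80 in KO and 0.233 in KO_PBS, and Kera to Prelp was 3.63, 3.86 and 0.575. Both were alike in WT and KO and low in KO_PBS alone. Lum to Kera, the pair of corneal keratan sulfate carriers, was 1.95, 2.47 and 4.73, so Lum did not follow Kera in step. At the other end Fmod to Prelp was 2.18, 2.15 and 2.47, the narrowest spread at 1.15-fold. Decorin to biglycan was 9.78 in WT against 3.33 in KO and 3.11 in KO_PBS.

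The collagen partners of these proteins give another base. The 11 collagen genes (of types I, III, V, VI, XII and XIV) had 228939 UMIs in WT against 1171051 in KO and 324747 in KO_PBS. Per 1000 of them the 9 proteoglycans had 810 UMIs in WT against 612 in KO and 899 in KO_PBS, so the family was lower relative to collagen in KO, where its CPM was highest. Kera had 54.0, 46.8 and 18.0 UMIs per 1000 collagen UMIs and Lum 105, 115 and 85.2. Dcn had 468, 286 and 461, and thus lay alike in WT and KO_PBS. Bgn stood at 47.9, 85.9 and 148 and Fmod at 32.5, 26.1 and 77.5, so that both were highest in KO_PBS on this base. Ogn had 75.4, 31.0 and 63.8 and Omd 4.01, 1.88 and 4.77, so both were lowest in KO on it. From KO to KO_PBS the log2 ratio of Dcn (0.69), Bgn (0.79) and Aspn (0.56) turned upward. This base was chosen after the data were seen.

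**Figure D3:**
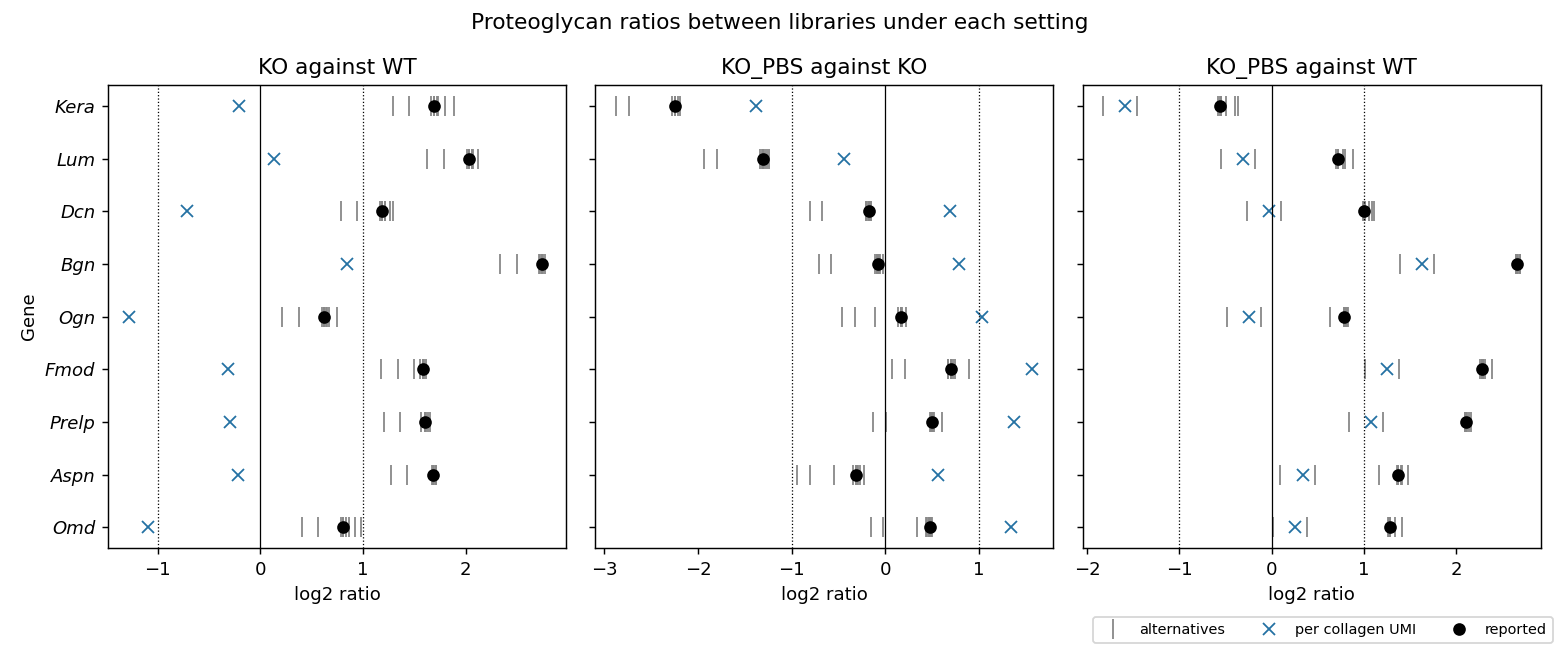
Log2 ratio of each proteoglycan in the 3 comparisons (horizontal axis), with the reported value as a black point, the other scalings and barcode choices as grey bars and the ratio per collagen partner UMI as a blue cross. Dotted lines mark a fold of 2. In KO against WT the crosses lie below 0 for every member but Lum and Bgn, and in KO_PBS against KO each mark of Kera and Lum lies below 0.

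To see where the UMIs lay, the 200 barcodes with the most stromal collagen marker UMIs for their depth were summed in each library. None of the 9 genes was used to choose them. They are a range of a score and not a cell type, and the score itself was unlike between libraries, with a median of 25.3 in WT against 12.5 in KO and 4.95 in KO_PBS. In WT, Kera reached 966 CPM in these barcodes (900 to 1035), 20.0-fold over the library, Lum 1054 (11.2-fold), Dcn 4096 (9.78-fold) and Bgn 316 (7.38-fold). They held 6.47% of the library's Kera UMIs in 0.324% of all UMIs. In KO, Kera stood at 606 CPM (553 to 664; 3.89-fold over the library), Lum at 1295, Dcn at 3144 and Bgn at 823. In KO_PBS, Kera stood at 62.1 CPM (39.3 to 93.1; 1.89-fold), Lum at 294, Dcn at 1398 and Bgn at 658.

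Compared between libraries, these stromal barcodes kept Kera lowest in KO_PBS and Bgn lowest in WT. The family as a whole did not keep its order. Its sum was 6867 CPM in WT against 6656 in KO and 3028 in KO_PBS. Here WT and KO had overlapping intervals where the whole libraries differed by 2.81-fold. KO_PBS was 2.27-fold below WT in these barcodes and 2.27-fold above it in the whole library. Kera was 1.59-fold lower in KO than in WT there, which is the opposite direction to the whole-library value, and 9.77-fold lower in KO_PBS than in KO. Dcn was opposite too, 1.30-fold lower in KO than in WT and 2.93-fold lower in KO_PBS than in WT. Lum (3.58-fold) and Ogn (1.87-fold) were lower in KO_PBS than in WT there and higher in the whole library. Bgn was 2.61-fold higher in KO than in WT, and Fmod (96.5, 293 and 302 CPM in the order WT, KO, KO_PBS) 3.04-fold. The intervals of Fmod in KO and KO_PBS overlapped. Prelp had 43.4, 104 and 127 CPM, and its intervals in KO and KO_PBS overlapped too. Aspn had 9, 48 and 9 UMIs and Omd 6, 15 and 5, which leaves wide intervals. Aspn was still 5.74-fold higher in KO than in WT with separate intervals (62.3 against 10.9 CPM). All other comparisons of Aspn and Omd in these barcodes had overlapping intervals. Within the family, Kera supplied 14.1% of these UMIs in WT against 9.11% in KO and 2.05% in KO_PBS, Bgn 4.60%, 12.4% and 21.7%, and Fmod 1.40%, 4.41% and 9.98%. The marker CPM of these barcodes was 13522 in WT against 15750 in KO and 7310 in KO_PBS, and its part in the differences was not tested. With a fixed score of at least 10 in place of the top 200, a rule added after the data were seen, 858 barcodes remained in WT against 226 in KO and 2 in KO_PBS, and Kera stood at 568 CPM in WT and 600 in KO. The intervals of these 2 levels overlapped. Under this rule Dcn was higher in KO, at 3095 CPM (2978 to 3214) against 2858 in WT (2803 to 2914), the reverse of the top 200. The family's sum was also higher in KO, at 6561 CPM (6391 to 6734) against 4749 (4678 to 4821), with no overlap. For KO_PBS this rule gave a sum of 8750 CPM (6406 to 11672) on 46 UMIs in 2 barcodes, above WT, where the top 200 lay below it. Kera had 0 UMIs in these 2 barcodes, and its interval of 0 to 702 CPM held the levels of WT and KO. Under this rule Kera was thus not separately lowest in KO_PBS. The directions for Kera, Dcn and the sum between WT and KO in stromal barcodes thus rest on how the barcodes were chosen. So does the direction for the sum between KO_PBS and WT, which rests on 2 barcodes under this rule. That rule sets a minimum and not an equal score, with a median of 14.8 in WT and 12.1 in KO, and the marker CPM was 8722 and 15453. Kera supplied 12% of the family in WT and 9.14% in KO under it. With the top 100 barcodes Kera had 1171 CPM in WT against 720 in KO, and with the top 500 at 718 and 543, lower in KO both times.

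**Figure D4:**
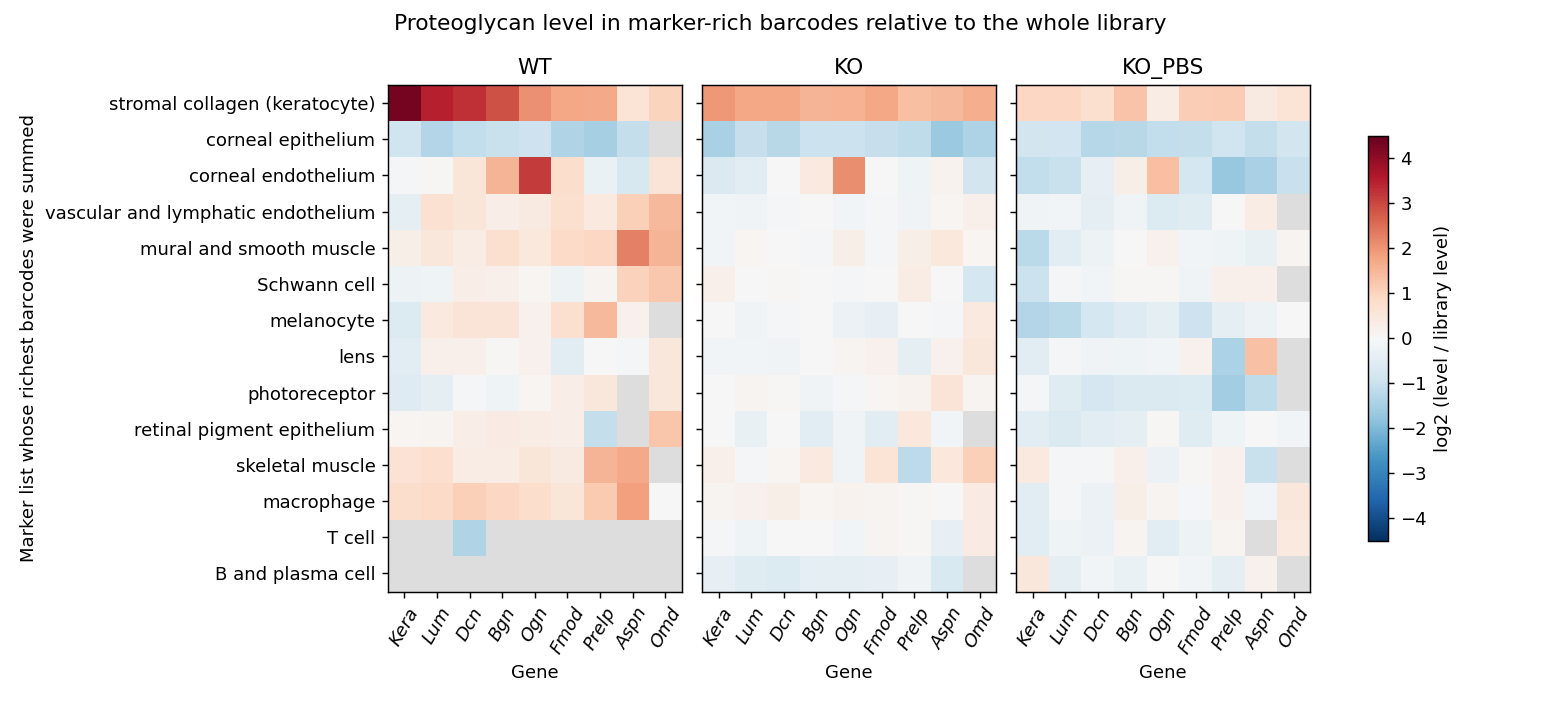
Level of each proteoglycan in the barcodes richest in each of 14 marker lists relative to the whole library (colour, log2 ratio, grey where fewer than 3 UMIs or no barcode was found), 1 panel per library. The row of stromal collagen is the warmest for most genes in each panel and fades from WT to KO_PBS, and Ogn stands out in the row of corneal endothelium, 8.82-fold over the library in WT.

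Stromal barcodes gave the highest level of any list for 6 members in WT, 8 in KO and 7 in KO_PBS. Not all of these were separate from the next list. In KO_PBS, Kera had 62.1 CPM (39.3 to 93.1) in them against 47.1 (21.5 to 89.3) in barcodes rich in B and plasma cell markers. Prelp in WT, Prelp, Aspn and Omd in KO, and Prelp and Omd in KO_PBS also had overlapping intervals with the next list. Ogn was the exception in every library, with its highest level in barcodes rich in markers of corneal endothelium, the cell layer behind the stroma that pumps fluid out of it. There Ogn had 595 CPM in WT (547 to 647; 8.82-fold over the library), 440 in KO (397 to 488; 4.26-fold) and 297 in KO_PBS (262 to 334; 2.55-fold). It supplied 38.6% of the family's UMIs in these barcodes in WT. In the stromal barcodes of WT its level was 277 CPM (243 to 316), below the endothelial value with no overlap. Corneal endothelium markers summed to 469, 374 and 1606 CPM in the libraries, a different order from that of Ogn, and their part in the Ogn level was not tested. Bgn in WT was also above its library level in endothelium-rich barcodes, at 123 CPM (2.87-fold). In WT, Aspn was highest in barcodes rich in mural and smooth muscle markers, at 34.0 CPM (21.5 to 51.0; 23 UMIs), with an overlapping interval in macrophage-rich barcodes (25.5 CPM), and Omd too was highest in mural-rich barcodes, on 7 UMIs. In KO_PBS the other exception was Aspn, which was highest in lens-rich barcodes at 45.2 CPM (26.3 to 72.4; 17 UMIs), 2.49-fold over the library, with an overlapping interval in stromal ones (24.3 CPM). Lens markers were highest in that library, and their part in the Aspn level was not tested.

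Barcodes rich in corneal epithelium markers should hold little of these genes. Whether UMIs of the family in them came from free RNA, from doublets or from the cells themselves was not tested. They had 335 CPM of the family in WT, 912 in KO and 727 in KO_PBS, or 0.462-, 0.447- and 0.442-fold the library level. In WT, Kera had 26.1 CPM in them (18.6 to 35.7) against 966 in stromal barcodes. In KO_PBS it had 18.6 CPM (10.4 to 30.6) against 62.1 in stromal barcodes (39.3 to 93.1), a smaller gap whose intervals still did not overlap. Over the 12 other lists with barcodes in WT, Kera ranged from 26.1 to 82.7 CPM and Lum from 37.5 to 172 CPM. Levels also changed little with depth. Over 4 equal groups of barcodes by UMIs, Kera ranged from 42.5 to 55.2 CPM in WT, 154 to 158 in KO and 29.5 to 37.2 in KO_PBS, and the widest range of any member was 1.35-fold (Omd in WT). Barcodes of every depth thus held the family at about the library's level.

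The barcode filter is not given in the sources used here, and whether every deposited barcode is a nucleus could not be settled, so shares below are shares of barcodes and not of nuclei. The most Kera UMIs in 1 barcode were 15 in WT against 14 in KO and 4 in KO_PBS, and 176, 356 and 0 barcodes held at least 5. After thinning every barcode to 1000 UMIs, Kera was present in 4.07% of barcodes in WT against 14.0% in KO and 3.33% in KO_PBS (9.66% in WT without thinning). Among stromal-rich barcodes the thinned share was 60.5% in WT (53.4% to 67.3%), 38.5% in KO (31.7% to 45.6%) and 3.76% in KO_PBS (1.53% to 7.60%), where 186 of the 200 were deep enough. In epithelium-rich barcodes it was 4.00%, 7.00% and 3.00% (1.11% to 6.42% in KO_PBS). Median depths before thinning were 3364, 3392 and 1792 UMIs in stromal-rich and 5768, 5698 and 3570 UMIs in epithelium-rich barcodes. In KO_PBS the thinned shares rest on 7 and 6 barcodes with Kera and their intervals overlapped, so no difference was detectable at this depth, while the full counts above did differ. Bgn, in contrast, was present in 28.0%, 55.5% and 39.8% of stromal-rich and in 3.00%, 11.5% and 11% of epithelium-rich barcodes. Thinning left out 265 barcodes in WT against 226 in KO and 16860 in KO_PBS.

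Genes that work with these proteins were read from 7 lists. Their counts stand beside shares over all genes of 20.6% higher and 8.63% lower in KO against WT, 39.9% and 4.7% in KO_PBS against KO, and 57% and 4.06% in KO_PBS against WT. Relative to the median gene these shares were 14.8% and 12.9%, 29.8% and 12.9%, and 29.6% and 23.1%, in the same order. In KO against WT the 11 collagen partners were all higher, with a median log2 ratio of 1.71 against 0.24 over all genes, for example Col1a1 (217 to 928 CPM) and Col1a2 (245 to 1163 CPM), the chains of type I collagen. After median centring 9 of the 11 were still higher, without Col12a1 and Col14a1. In KO_PBS 4 of the 11 were lower than in KO and 0 higher, Col1a1 at 429 CPM, Col3a1, Col5a1 and Col5a2, and the median log2 ratio was -0.81 against 0.63. Relative to the median gene 9 of the 11 were lower there. Of 12 genes that process or cross-link collagen, 7 had a higher level in KO than in WT and 0 a lower one, where 20.6% of all genes were higher and 8.63% lower. Relative to the median gene these became 6 higher and 1 lower, Pcolce2 (12.6 CPM in WT against 7.47 in KO), which lay just past the fold of 2. Lox, lysyl oxidase, had 3.50, 43.1 and 15.8 CPM in WT, KO and KO_PBS, with an antisense gene that not every list holds. The same limit holds for Col5a1, Col14a1 and Pcolce2. Pcolce, which speeds removal of the collagen propeptide, had 61.2, 105 and 298 CPM and was highest in KO_PBS, where 5 of the 12 were above KO and 1, Lox, below. That share of higher genes is near the 39.9% over all genes, and relative to the median gene it became 1 higher (Adamts3) and 2 lower (Lox and Loxl4).

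The enzymes that build the sugar chains were counted by the same rule. For keratan sulfate 5 of 9 genes passed the rule upward in KO against WT, among them B3gnt7 (3.03 to 11.1 CPM) and B4galt1 (27.0 to 79.8 CPM), which extend the chain, and 0 passed it downward. Without Chst2, 4 passed upward relative to the median gene. In KO_PBS against KO 5 were higher and 1 lower, which became 4 and 1. Chst5, the sulfotransferase of corneal keratan sulfate in the mouse, had 35.9, 24.4 and 50.3 CPM in WT, KO and KO_PBS and passed the rule only in KO_PBS against KO (2.06-fold), a call lost relative to the median gene (log2 ratio 0.41). Chst2 had 1.62, 3.28 and 15.7 CPM. B3gnt2 was lower in KO_PBS (5.79 CPM) than in WT (18.3 CPM) and KO (34.1 CPM), but it overlaps Gm28048 on the same strand, a gene that not every library's list holds, so its counting may differ between libraries. For chondroitin and dermatan sulfate 11 of 21 genes passed upward in KO against WT and 0 downward, where 20.6% of all genes were higher, and relative to the median gene 7 of 21 passed upward. Dse, the epimerase that turns chondroitin into dermatan sulfate, had 2.69, 16.4 and 35.4 CPM, and Ust 7.60, 22.9 and 36.1 CPM. In KO_PBS against KO, 4 of these 21 were higher and 0 lower, which relative to the median gene became 0 higher and 1 lower.

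Proteases that cleave proteoglycans had the highest median log2 ratio of the 7 lists in KO against WT (3.09), with 9 of 10 higher and 0 lower. Mmp3, stromelysin, had 66.2 CPM in WT, 1092 in KO and 105 in KO_PBS, and Mmp12, the macrophage elastase, 0.395, 34.4 and 3.23 CPM. Mmp2 had 14.9, 83.7 and 74.4 CPM, while the aggrecanase Adamts5 had 5.82, 15.6 and 45.0 CPM and was highest in KO_PBS. KO_PBS was lower than KO for 3 of the 10 (Mmp3, Mmp12 and Mmp13) and higher for 2 (Adamts1 and Adamts5), where 4.7% of all genes were lower and 39.9% higher. Relative to the median gene 4 were lower, Mmp8 added, and 0 higher. Of 10 receptors and ligands bound by the proteoglycans, 4 were higher in KO than in WT, namely Tlr2, Tlr4, Cd14 and Lrp1, and 0 lower. The call of Lrp1 was lost relative to the median gene (log2 ratio 0.90). In KO_PBS against KO 3 of the 10 were higher (Tgfb2, Tgfb3 and Bmp4) and 2 lower, Egfr (228 to 93.6 CPM) and Cd14 (20.7 to 6.91 CPM). Over all genes 39.9% were higher there and 4.7% lower. After median centring 2 were higher, without Tgfb3, and 3 lower, with Tgfb1, where 29.8% and 12.9% of all genes were. Tgfb3 overlaps an antisense gene that not every list holds. Cd14 also belongs to the macrophage marker list. Tgfb2 had 10.7, 14.5 and 85.5 CPM and Bmp4 2.45, 1.71 and 49.8 CPM, both highest in KO_PBS, where lens and pigment cell markers were also highest and whose part was not tested. Of the 8 further family members that reached 50 UMIs, KO stood above WT for 4 and below it for 1, and relative to the median gene above for 2 (Podnl1 and Tsku). Optc, opticin, known from the eye's ciliary body and vitreous, was the lower one and had 3.06, 0.444 and 47.4 CPM. In KO_PBS against WT all 8 were higher, where 57% of all genes were, and relative to the median gene 5 of the 8 remained so.

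Across 41 sums, 1 for each marker list with barcodes in each library, the 5 other genes closest in level to the summed 9 members were Sparc (Pearson r = 0.96), Col1a2 (0.95), Col1a1 (0.92), A2m (0.88) and Thbs2 (0.88), of 7303 genes. Between members the closest were Bgn and Fmod (r = 0.95), Kera and Lum (0.90) and Fmod and Prelp (0.87), and the lowest value was that of Kera and Fmod (0.15). These values are descriptions. The sum of the T cell list in WT held only 2 barcodes and 18133 UMIs, with 0 UMIs of Bgn, Fmod, Prelp, Aspn and Omd. Its weight in these values was not tested. The sums share libraries, and Col1a1 and Col1a2 were among the markers that chose the stromal barcodes.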

How the data were processed

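Nuclei of frozen whole corneas were profiled by 10x Genomics droplet sequencing (3′ chemistry v3, per the labels' protocols). The matrices deposited by the authors hold raw UMI counts of each gene in each barcode. Cell Ranger 7.0.1 is named in the file headers and in the submitters' processing notes, which also give the build mm10. The annotation, the use of intronic reads and of strand, and the barcode filter are not given in the sources used here. The WT and KO lists hold 32285 genes and the KO_PBS list 31053. The 30406 Ensembl IDs in all 3 lists held 99.6% of UMIs in WT against 99.6% in KO and 99.3% in KO_PBS.

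All barcodes of a library were summed, with no doublet removal, and scaled to CPM of the shared IDs. Intervals are exact 95% Poisson for levels and Clopper-Pearson for shares. UMI counts of genes in 1 pooled library give no biological error. The rule of size set counts under 3 to 3. For marker-rich barcodes, observed minus expected marker UMIs over the square root of expected ranked the barcodes, those with fewer than 3 detected markers were left out, each barcode counted for the list of its highest score, and at most 200 were taken per list. Stromal markers were Col1a1, Col1a2, Col5a1, Col5a2, Col6a1, Col6a2, Col6a3, Col12a1, Angptl7 and Abi3bp. Similar genes were ranked on log2(CPM + 1) among genes with at least 500 UMIs. Text on a pathway list names up to 4 genes each way with the largest ratio past the rule and at least 10 CPM, and gene values beyond those (Tlr2, Chst5 in WT and the like, and Gm28048) were chosen after they were seen. Members and lists were chosen with earlier results of these data known.

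Alternatives changed the total (own gene list, without immunoglobulin or mitochondrial genes, median centring, size factors by the median of ratios), the barcodes, the UMI minimum and the fold. Tools were scipy 1.17.1, numpy 2.4.6, pandas 2.3.3 and matplotlib 3.10.9 under python 3.11.15. The rule of size, the choice of marker-rich barcodes and the totals after thinning were tested on simulated data, and the other steps were not.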

Additional observations from a re-analysis of the deposited data

How the results depend on the processing

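No paired analysis was possible because each group is 1 library, and for the same reason no replicate could be left out. Counts of proteoglycans moved by over 1.5 times under 3 settings. Size factors by the median of ratios gave 3 higher and 1 lower in KO_PBS against WT, median centring 2 higher and 1 lower there, and a fold of at least 1.5 gave 1 higher in KO_PBS against KO. The other 73 counts of proteoglycans under alternatives stayed within that limit. Per UMI of the collagen partners, added after seeing the data, the log2 ratio of KO against WT turned to -0.21 for Kera, -0.71 for Dcn, -0.32 for Fmod, -0.30 for Prelp, -0.22 for Aspn, -1.28 for Ogn, -1.09 for Omd and -0.41 for the summed 9. That of KO_PBS against KO turned to 0.69 for Dcn, 0.79 for Bgn, 0.56 for Aspn and 0.56 for the sum, and that of KO_PBS against WT to -0.024 for Dcn, -0.31 for Lum and -0.24 for Ogn. Median centring turned KO_PBS against WT to -0.26 for Dcn, -0.55 for Lum, -0.48 for Ogn and -0.089 for the sum, and KO_PBS against KO to -0.46 for Ogn, -0.13 for Prelp and -0.15 for Omd. Size factors turned KO_PBS against WT to -0.18 for Lum and -0.11 for Ogn, and KO_PBS against KO to -0.33 for Ogn and -0.020 for Omd, and the 25% of barcodes with the fewest UMIs turned KO_PBS against KO to -0.11 for Ogn. At a stromal score of at least 10, Kera in KO_PBS was listed at 0-fold its library level on 2 barcodes (interval 0 to 21.3). Counts of all genes depended on the setting. Size factors gave 2524 higher and 3375 lower in KO against WT, 2299 lower in KO_PBS against KO, and 8112 higher and 3360 lower in KO_PBS against WT. Median centring gave 2891 lower in KO_PBS against KO, and 6558 higher and 5106 lower in KO_PBS against WT. The 25% of barcodes with the fewest UMIs gave 607 lower in KO against WT, 4953 higher in KO_PBS against KO and 7647 higher in KO_PBS against WT. Thinning gave 892 lower in KO against WT, and no UMI minimum 2872. A minimum of 500 UMIs gave 491 lower in KO against WT, 4378 higher and 698 lower in KO_PBS against KO, and 7563 higher in KO_PBS against WT. A fold of at least 1.5 gave 7000 higher and 3202 lower in KO against WT, 1925 lower in KO_PBS against KO and 1668 lower in KO_PBS against WT. The cause of these shifts was not tested beyond what each setting changes by its construction. Depth limits Aspn and Omd most, whose marker-rich sums rest on few UMIs.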
